A study of Mus musculus with 21 samples.

Results

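The genes described here were 36 type I interferon-stimulated genes (ISGs) of the mouse, named by symbol, out of 55487 genes in the count tables. Each symbol matched 1 row in the skin table and 1 row in the lymph node table, and all 36 genes passed the low-count filter in both tissues. RNA was sequenced from 9 skin and 12 inguinal lymph node libraries of wild-type (WT) mice and mice with a transgene for *Ifnk* (*Ifnk* TG), which encodes interferon kappa, a type I interferon made by keratinocytes. The question was how these genes behaved where the transgene had led to skin lesions, and in the nodes that drain the skin with and without ultraviolet B (UVB) light.

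Skin came from mice of 12 months: 3 WT libraries (samples 8 to 10), 2 libraries of nonlesional *Ifnk* TG skin (NL, samples 2 and 3) and 4 libraries of lesional *Ifnk* TG skin (L, samples 4 to 7), none of them irradiated. Nodes came in 4 groups of 3: WT without treatment (NoTx, samples 1 to 3), *Ifnk* TG NoTx (samples 4 to 6), WT after UVB (samples 7 to 9) and *Ifnk* TG after UVB (samples 10 to 12). After shaving of the back, UVB was given at 250 mJ per square centimetre on 3 days per week for 2 weeks, and nodes were taken after 2 further weeks of observation. Per the study's methods, the keratin 14 promoter drives the transgene in the epidermis and both genotypes are on the BALB/c background. The labels do not give the age of the mice the nodes came from.

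Type I interferons bind the receptor pair IFNAR1 and IFNAR2 and act through the kinases JAK1 and TYK2 on a transcription factor complex, ISGF3, which contains IRF9. ISGF3 binds the interferon-stimulated response element (ISRE) in the promoters of ISGs, whose proteins sense viral RNA, block translation and viral assembly, or damp the response again. In skin the same genes form the interferon signature known from cutaneous lupus. Many of them also respond to interferon gamma, which acts on the GAS element.

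The promoters were searched for the ISRE. RefSeq promoter windows on GRCm38.p6, a patch release of the build the reads were aligned to, were at hand for 25 of the 36 genes. Within 250 bases upstream of the start, the ISRE core GAAANNGAA, searched on both strands with overlaps allowed, occurred in 11 of the 25 genes (44%), beside 8.18% of 27025 genes in the whole promoter table. The GAS letters TTCNNNGAA occurred in 4 of the 25 (16%) and in 8.13% of all genes. The 200 bases before the start follow for *Isg15*, the gene with the largest change in lesions, for *Ifit1*, *Ifit3*, *Ifit3b* and *Rsad2*, which were among the genes with the largest differences between genotypes in untreated nodes, and for *Ifi35*, which was higher in lesions and holds no match. Capitals mark the ISRE core in either orientation, and touching matches run together.
Isg15, chr4:156200819-156201018, minus strand: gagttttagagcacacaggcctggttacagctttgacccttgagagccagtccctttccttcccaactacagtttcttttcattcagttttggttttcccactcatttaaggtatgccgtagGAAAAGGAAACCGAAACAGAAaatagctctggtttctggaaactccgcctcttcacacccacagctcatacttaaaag
Ifit1, chr19:34640689-34640888, plus strand: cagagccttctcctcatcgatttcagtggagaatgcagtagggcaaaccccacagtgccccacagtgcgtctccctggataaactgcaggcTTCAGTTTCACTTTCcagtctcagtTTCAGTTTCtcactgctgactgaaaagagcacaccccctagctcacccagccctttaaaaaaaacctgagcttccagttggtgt
Ifit3, chr19:34583329-34583528, plus strand: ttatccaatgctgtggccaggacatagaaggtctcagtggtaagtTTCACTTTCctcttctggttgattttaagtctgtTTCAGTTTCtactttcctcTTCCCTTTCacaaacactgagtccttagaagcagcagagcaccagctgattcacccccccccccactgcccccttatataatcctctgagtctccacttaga
Ifit3b, chr19:34607757-34607956, plus strand: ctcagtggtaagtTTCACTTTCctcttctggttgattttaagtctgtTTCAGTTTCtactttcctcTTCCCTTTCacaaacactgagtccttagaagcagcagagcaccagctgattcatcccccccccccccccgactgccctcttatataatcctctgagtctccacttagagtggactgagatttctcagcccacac
Rsad2, chr12:26456453-26456652, minus strand: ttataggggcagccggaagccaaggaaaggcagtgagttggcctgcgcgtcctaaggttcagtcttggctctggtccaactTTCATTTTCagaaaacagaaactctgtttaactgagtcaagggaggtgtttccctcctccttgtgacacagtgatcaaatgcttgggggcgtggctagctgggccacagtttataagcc
Ifi35, chr11:101448212-101448411, plus strand: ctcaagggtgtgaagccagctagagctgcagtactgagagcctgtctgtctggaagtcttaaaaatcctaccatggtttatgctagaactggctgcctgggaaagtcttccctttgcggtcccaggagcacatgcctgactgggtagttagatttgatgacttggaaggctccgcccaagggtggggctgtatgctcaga

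*Isg15*, *Ifit1*, *Ifit3* and *Ifit3b* each held 3 matches, and *Rsad2* held 1. The 3 matches of *Ifit1* lie at the same bases as the 3 matches of *Ifit1bl2*, because the windows of these neighbours overlap head to head on opposite strands of chromosome 19. *Bst2* held 2 matches and each of the 2 windows of *Ifit1bl1* held 2, while *Ifih1*, *Ifi44l* and *Trim30a* held 1 each. Among genes that differed between groups, *Xaf1*, *Herc6* and *Lgals3bp* had none of these letters in the window. *Ifit3* and *Ifit3b* also share transcript sequence: 18.4% of the 151-base windows of *Ifit3* and 15.8% of those of *Ifit3b* occur in the other gene, so reads of this length, the length sequenced, cannot all be assigned between the pair. For the other 34 genes the shared part was at most 8.65%, in *Herc6*.

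Total counts ran from 40499078 to 56511276 per library in skin and from 27599809 to 36428435 in nodes, and no pair of libraries of a group agreed within sampling noise. In skin, L sample 6 and NL sample 3 stood apart in *Xist*, the RNA of the inactive X chromosome, with 6 and 13 counts against 3297 to 9353 in the other 7 libraries. *Ddx3y*, on the Y chromosome, had 0 counts in every skin library, these included. In the node libraries *Ddx3y* had 2507 to 7084 counts and *Xist* 3 to 42. The labels do not give the sex of the mice. The keratinocyte markers *Krt14* and *Krt5* had at most 2 counts in any node library. Of the keratinocyte list of 6 genes, 2 passed the filter in nodes, and these summed to between 1.2 and 2.48 CPM per library. *Ifnk* had few counts: 14, 11, 5 and 8 in L samples 4 to 7, 6 and 0 in NL samples 2 and 3. It had 0 in each WT skin library and each node library, where a count of 0 allows up to 3 counts. These counts do not tell RNA of the transgene from that of the mouse's own *Ifnk* gene. In edgeR's test the adjusted p of *Ifnk* was 0.0191 for L against WT skin and 0.65 for NL against WT skin. *Ifnk* passed the low-count filter only through L libraries, so its call in L is no support for a rise.

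Below, CPM is the count scaled to library size with TMM factors, a fold change is on the log2 scale with its SE, and a gene is called where the Benjamini-Hochberg adjusted p of edgeR's quasi-likelihood test over all genes of the tissue is under 0.05. Nothing in the labels says which samples share an animal, so the p-values measure the spread between these samples. Per length (RPKM over GENCODE exons), *Ifi27l2a*, a small mitochondrial membrane protein, led the 36 genes in both tissues, with 430 ± 51.2 (SD, n = 3) in WT skin and 296 ± 193 (SD, n = 3) in WT NoTx nodes. *Ifitm3*, which blocks virus entry at membranes, came next in skin at 224 ± 24.4 RPKM but stood at 14 RPKM on average in WT NoTx nodes. At the low end of WT skin were *Ifit1bl1* at 0.109, *Ifit1bl2* at 0.175 and *Mx1* at 0.391 RPKM on average. The tissues were counted and scaled separately, and their libraries also differed in *Ddx3y*, so these levels are set side by side without a test.

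In lesional skin the ISGs were raised strongly in some libraries and hardly at all in others. Taken as the mean over the 36 genes of log2 CPM minus each gene's mean over the 9 skin libraries, the level was 0.94 and 0.95 in L samples 4 and 6 but −0.26 and −0.17 in L samples 5 and 7. WT libraries stood at −0.04, −0.14 and −0.26, and NL samples 2 and 3 at −0.80 and −0.21. L samples 4 and 6 together held the highest value of 33 of the 36 genes, and each was above the skin median for 34 of them. L samples 5 and 7 lay within the WT range, above the median for 15 and 11 genes.

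**Figure D1:**
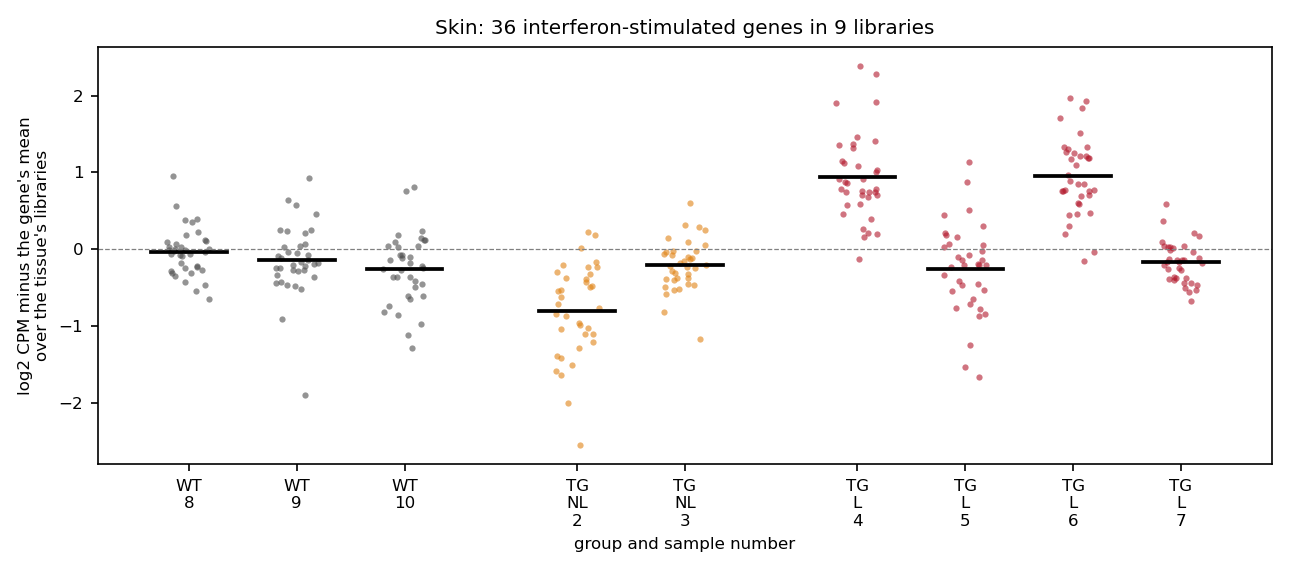
Level of the 36 genes in each skin library: each point is 1 gene's log2 CPM minus its mean over the 9 skin libraries (y axis), and the black bar is the library's mean; libraries are grouped as WT, nonlesional (TG NL) and lesional (TG L) with their sample numbers on the x axis. The bars of L samples 4 and 6 sit at 0.94 and 0.95, while all other bars lie at or below −0.04 and the lowest, NL sample 2, is at −0.80.

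Against WT skin, 30 of the 36 genes had a positive fold change in L skin, with a median of 0.69 against 0.06 over all 19101 genes tested. Called higher were 7 genes (19.4%): *Isg15*, *Herc6*, *Ifit1bl1*, *Ifi27l2a*, *Ifi35*, *Rtp4* and *Xaf1*. Across all genes 23% were called higher, so the share of ISGs called was no larger than that of genes in general. Only *Ifi27* was called lower, where 20.2% of all genes were. In 4 genes (11.1%), *Isg15*, *Ifi35*, *Rtp4* and *Xaf1*, every L library exceeded every WT library, and 25.9% of all genes did so.

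*Isg15* encodes a ubiquitin-like protein that is conjugated to other proteins. It stood at 135.5 (sample 4), 57.0 (5), 102 (6) and 26.1 (7) CPM in L skin, at 16.5, 13.8 and 11.9 CPM in WT samples 8 to 10, and at 6.40 and 14.6 CPM in NL samples 2 and 3. Each L library was above all WT and NL libraries, and sample 7 was the lowest of them. The fold change was 2.51 ± 0.57 (SE) against WT (adjusted p = 0.00936) and 2.93 ± 0.69 against NL (adjusted p = 0.0192). Against WT it stayed past the threshold whichever of the 9 skin libraries was left out.

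*Herc6*, the ligase that attaches ISG15 in the mouse, had 22.5, 10.8, 25.9 and 8.015 CPM in L samples 4 to 7, 7.01 and 7.87 CPM in NL samples 2 and 3, and 8.05, 7.45 and 7.74 CPM in WT samples 8 to 10. Its fold change against WT was 1.12 ± 0.39 (adjusted p = 0.0451), although L sample 7 fell inside the WT range. The call was lost in 7 of the 9 fits that left out 1 library, with an adjusted p of up to 0.122. *Usp18*, which removes ISG15 and inhibits the receptor, was not called, with a fold change of 0.89 ± 0.33 (adjusted p = 0.0577) and 10.4 to 30.8 CPM in L against 9.47 to 13.0 CPM in WT. Both genes therefore showed the same order of L libraries, with sample 6 highest and sample 7 lowest.

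*Xaf1*, a promoter of apoptosis, stood at 19.1, 11.7, 20.55 and 7.87 CPM in L samples 4 to 7 and at 7.37, 6.65 and 4.85 CPM in WT samples 8 to 10, with 5.22 and 5.74 CPM in NL samples 2 and 3. *Ifi35*, an interferon-induced leucine zipper protein, stood at 52.7, 41.45, 52.5 and 25.6 CPM in L and at 21.6, 25.35 and 20.6 CPM in WT, with 22.2 and 20.03 CPM in NL. The L and WT libraries did not overlap for either gene, but L sample 7 lay just above the highest WT library in both. Their fold changes were 1.24 ± 0.33 (*Xaf1*, adjusted p = 0.0164) and 0.94 ± 0.24 (*Ifi35*, adjusted p = 0.0125). *Rtp4*, which binds viral RNA and is also a receptor chaperone, had 48.3, 21.8, 54.9 and 19.1 CPM in L and 15.6, 15.9 and 9.79 CPM in WT, beside 8.29 and 16.45 CPM in NL, with a fold change of 1.39 ± 0.45 (adjusted p = 0.0349). Without WT sample 10 the adjusted p was 0.0648 for *Xaf1*, 0.0507 for *Ifi35* and 0.114 for *Rtp4*, whose call was lost in 5 of the 9 fits that left out 1 library.

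The IFI27 family split. *Ifi27* lies on chromosome 12 at 103434211 to 103440239 (GRCm38, plus strand) and its relative *Ifi27l2a* lies beside it at 103442167 to 103443680 on the minus strand. *Ifi27* had 149, 122, 146 and 126 CPM in L samples 4 to 7, 189 and 173 CPM in NL, and 212, 193 and 179 CPM in WT samples 8 to 10, so that every L library was below every other skin library. It fell by 0.52 ± 0.11 on the log2 scale against WT (adjusted p = 0.00557), and the call held whichever library was left out. *Ifi27l2a* had 556, 191, 452 and 358 CPM in L, 315 and 227 CPM in NL, and 224, 198 and 176 CPM in WT, where L sample 5 lay among the WT values. Its fold change was 0.97 ± 0.33 (adjusted p = 0.0404), a call that was lost in 8 of the 9 fits that left out 1 library (adjusted p of up to 0.122). *Ifi44* and *Ifi44l*, relatives of each other with roles in damping and sustaining interferon responses, had fold changes of 1.34 ± 0.58 and 0.04 ± 0.44 and were not called.

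Of the IFIT family, whose proteins bind foreign RNA and block its translation, only *Ifit1bl1* was called. It had 2.04, 0.74, 0.925 and 0.396 CPM in L samples 4 to 7, 0.191 and 0.147 CPM in NL, and 0.251, 0.0712 and 0.42 CPM in WT samples 8 to 10, so its fold change of 2.05 ± 0.70 (adjusted p = 0.0424) rested on low counts, and it was lost in 6 of the 9 fits that left out 1 library. *Ifit3* and *Ifit3b* had fold changes of −0.56 and −0.09, and *Ifit1* of 0.88 ± 0.55 (adjusted p = 0.229) with 8.43 to 33.1 CPM in L. The IFIT genes were highest in L sample 4, where their mean level was 1.36, and lowest in NL sample 2, at −1.01.

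Leaving out 1 library moved these counts. Without L sample 4, L sample 6, WT sample 8 or WT sample 9 the number of genes called fell from 8 to 4, without WT sample 10 to 3 and without NL sample 2 or 3 to 5, and without L sample 5 or 7 it was 12. Of all genes, between 32.9% and 42.5% were called in either direction in these fits, and 43.1% with all libraries. Separated upward were 12 genes without L sample 7, 8 without L sample 5 and 7 without WT sample 8, where 29.7%, 27.6% and 30% of all genes were. DESeq2, the study's own tool, called 13 of the 36, adding *Usp18*, *Zbp1*, *Ifi44*, *Bst2* and *Ifit1bl2* as higher, and 47.5% of all genes.

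Among the genes not called, the fold changes of the sensors of viral nucleic acids spread from −0.64 for *Ifi204* to 1.26 for *Zbp1*, with *Ddx58*, *Dhx58*, *Ifih1* and *Eif2ak2* in between. *Parp9*, *Parp12*, *Parp14* and *Dtx3l*, which modify proteins with ADP-ribose and ubiquitin, lay close together between 0.53 and 0.80. *Mx1* and *Mx2*, genes of the Mx GTPase family, had 1.19 and 0.90. The annotation lists *Mx2* as a polymorphic pseudogene. *Rsad2*, *Cmpk2* and *Isg20*, which make or degrade nucleotides and RNA, lay between 0.07 and 0.67. None of these 15 genes passed the threshold.

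Against NL skin, 35 of the 36 genes were positive in L skin with a median of 0.89, beside 0.03 over all genes. Called higher were 4 (11.1%), *Isg15*, *Bst2*, *Ifi35* and *Xaf1*, where 13.2% of all genes were, and *Ifi27* was called lower, where 11.8% were. Libraries of 13 genes (36.1%) did not overlap in the upward direction, and those of 24.7% of all genes did not. *Bst2*, or tetherin, which holds budding virus at the cell surface, had 87.6, 53.95, 116 and 42.45 CPM in L samples 4 to 7, 21.6 and 33.0 CPM in NL, and 46.4, 48.9 and 28.0 CPM in WT. Its fold change was 1.46 ± 0.44 against NL (adjusted p = 0.0443) and 0.87 ± 0.37 against WT (adjusted p = 0.0925). *Ifi35* and *Xaf1* had 1.03 ± 0.27 and 1.43 ± 0.39 against NL (adjusted p = 0.0263 and 0.0284). With only 2 NL libraries, leaving out either left a single one, taken to vary like the other groups, and then none of the 36 genes was called, where 7.3% and 5.85% of all genes were. Without L samples 5, 6 and 7 in turn, 9, 2 and 12 were called, where 23.9%, 21.5% and 24.7% of all genes were, and 25% with all libraries. Without NL sample 3, 23 genes were separated upward, where 31.1% of all genes were. None was called either when L and NL were fitted without WT, where *Isg15* had an adjusted p of 0.0531 and 16.8% of all genes were called. DESeq2 called 16, and 32.7% of all genes.

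**Figure D2:**
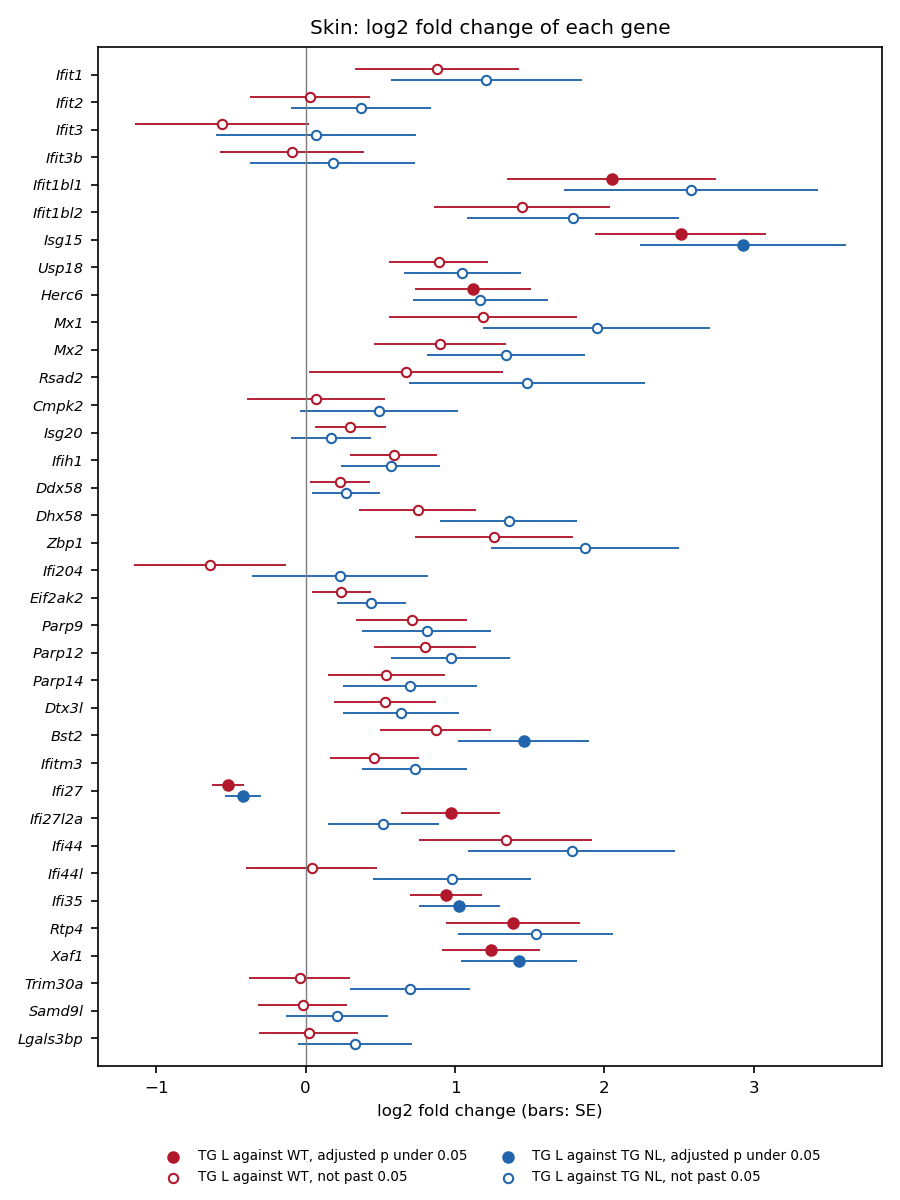
Log2 fold change (x axis, bars are SE) of each of the 36 genes (y axis) in lesional skin against WT (red) and against nonlesional skin (blue); filled points have an adjusted p under 0.05 in edgeR's test and open points do not. *Isg15* has the largest filled values at 2.51 and 2.93, and *Ifi27* is the only filled gene left of 0, at −0.52 and −0.42.

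With only 2 NL libraries, no rise of the 36 genes in NL over WT skin was detected. Fold changes were negative for 33 of the 36 genes with a median of −0.29, beside 0 over all genes. No ISG was called by edgeR or by DESeq2, none had an unadjusted p under 0.05, and 0% of all genes were called. In 4 genes (11.1%), *Dhx58*, *Parp12*, *Ifi44l* and *Trim30a*, both NL libraries lay below all WT libraries, against 16.3% of all genes, and in *Ifi27l2a* alone both lay above, against 18.6%. The negative values came mostly from NL sample 2, which had the lowest value of all 9 skin libraries for 18 of the 36 genes. Without it, 23 genes were negative and the median was −0.09. With NL sample 2 alone, 24 genes lay below all WT libraries, where 28.9% of all genes did. The number was 7 with NL sample 3 alone, 8 without WT sample 9 and 13 without WT sample 10, where 28.5%, 22.5% and 22.1% of all genes did. Above all WT libraries lay 3 genes with NL sample 3 alone and 3 without WT sample 8, where 29.2% and 26.1% of all genes did.

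Skin libraries also differed in what tissue they held, and in bulk RNA fewer cells of a type and less RNA per cell cannot be told apart. All 7 hair shaft genes on the marker list were called higher in L than in WT skin, where 23% of all genes were. Their summed levels were 1570 to 5250 CPM in L against 0.173 to 0.616 CPM in WT and 0.44 to 1.23 CPM in NL. At such sums they passed the low-count filter mainly through L, so their calls as higher in L were largely fixed beforehand. Of the neutrophil list, 3 of 5 tested genes were called higher, with sums of 66.2 to 621 CPM in L and 37.8 to 46.3 CPM in WT. Of the T cell list, 3 of 6 were called higher, with sums of 24.4 to 55.1 CPM in L and 26.5 to 36.6 CPM in WT. Skeletal muscle genes summed to 19 to 5670 CPM in L and 19600 to 28500 CPM in WT. L sample 4 was highest in the neutrophil list (mean level 3.3) and L sample 6 in the plasma cell list (1.88), and the T cell list stood at 0.84, 1.03, 0.91 and −0.1 in L samples 4 to 7. The part of these cells in the ISG values was not tested. With muscle, fat and hair genes left out before scaling, the fold change of *Isg15* against WT was 2.51 (adjusted p = 0.00931). That step drops marker genes and leaves the other RNA of these cells in place, so it cannot show their part.

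The rest of the interferon pathway showed calls in L skin against WT at several steps. Of all genes, 23% were called higher and 20.2% lower in this comparison. Of the ligands, *Ifng*, encoding interferon gamma, had 117, 34, 203 and 5 counts in L samples 4 to 7 and 5, 0 and 4 in WT samples 8 to 10. Its adjusted p in edgeR's test was 0.0356. *Ifng* passed the low-count filter only through L libraries, so this call is no support for a rise, and L sample 7 equalled WT sample 8. *Ifnb1* had at most 6 counts in any skin library. Of the receptors, only *Ifngr1* was called, and it fell by 0.86 ± 0.19 on the log2 scale. In the signalling list, *Stat2* was higher by 1.02 ± 0.34 and *Irf9* by 0.91 ± 0.25, while *Jak1* fell by 0.72 ± 0.16 on the log2 scale. The feedback inhibitor *Socs1* was higher by 1.83 ± 0.40. Of 8 genes of the *Oas* family, some of whose products make the activator of RNase L, 3 were called higher, led by *Oas1g* at 2.45 ± 0.52. Of 8 genes that lean towards interferon gamma, 5 were called higher: *Cxcl9* (5.95), *Iigp1* (2.92), *Igtp* (2.87), *Cd274* (1.88) and *Gbp3* (1.57). None of the 5 genes of the other list of interferon regulatory factors (*Irf1*, *Irf3*, *Irf5*, *Irf7*, *Irf8*) was called. Their median fold change was 0.59, and in 3 of them (60%) every L library exceeded every WT library, beside 25.9% of all genes. *Ifng* had its highest counts in L samples 6 and 4, the libraries in which the ISG level was highest. A link between *Ifng* and the ISG level was not tested.

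In nodes the ISGs moved up and down together from library to library. The mean level of the 36 genes was −0.09, 1.34 and 0.72 in WT NoTx samples 1 to 3, −0.59, −0.57 and −0.74 in *Ifnk* TG NoTx samples 4 to 6, −0.77, −0.67 and 0.37 in WT UV samples 7 to 9, and −0.29, 1.15 and 0.14 in *Ifnk* TG UV samples 10 to 12. WT NoTx sample 2 held the highest value of all 12 libraries for 27 genes and *Ifnk* TG UV sample 11 for 8. Each of these 2 libraries was above the node median for all 36 genes. Only the *Ifnk* TG NoTx group was tight and low throughout, while each other group held libraries that were far apart.

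**Figure D3:**
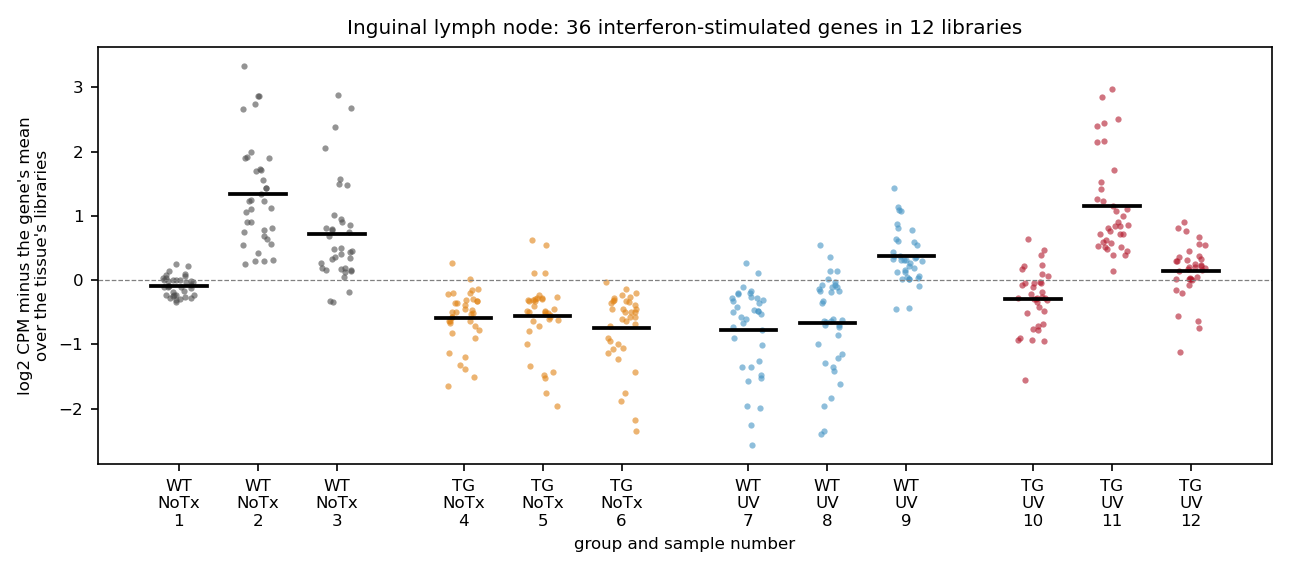
Level of the 36 genes in each lymph node library, drawn as for skin: points are genes (log2 CPM minus the gene's mean over the 12 node libraries), black bars are library means, and the x axis gives group and sample number. The 3 *Ifnk* TG NoTx bars lie between −0.74 and −0.57, and the bars of WT NoTx sample 2 and *Ifnk* TG UV sample 11 lie at 1.34 and 1.15.

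Without irradiation, all 36 genes were lower in *Ifnk* TG than in WT nodes, with a median of −1.07 beside 0 over all 16173 genes. In 29 genes (80.6%) every *Ifnk* TG library lay below every WT library, where 4.95% of all genes did. None of the 36 passed edgeR's threshold, as 0% of all genes did, and none passed DESeq2's, while 28 had an unadjusted p under 0.05, as did 549 of all genes. The genes did not vary independently of each other, so the counts describe these 6 libraries. Without WT sample 2 the median was −0.66, 34 genes were lower and 29 still did not overlap, where 12.1% of all genes did not.

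The difference ran through the roles with different depth. All 6 IFIT genes were separated, with a median of −2.32. *Ifit1* stood at 17.65, 112 and 91.8 CPM in WT samples 1 to 3 and at 7.97, 4.48 and 6.48 CPM in *Ifnk* TG samples 4 to 6. The WT libraries spread widely, but the lowest of them was above the highest *Ifnk* TG library, and the fold change was −3.54 ± 1.04 (adjusted p = 1). *Isg15* likewise stood at 12.0, 53.1 and 41.8 CPM in WT and at 11.0, 7.005 and 6.71 CPM in *Ifnk* TG nodes, where the lowest WT and the highest *Ifnk* TG library were close.

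The nucleotide and RNA enzymes *Cmpk2*, *Isg20* and *Rsad2* had fold changes of −2.37, −1.28 and −3.47, and *Mx2* had −3.53 with *Mx1* at −1.38. *Rsad2* and *Mx1* were not separated. Their highest *Ifnk* TG NoTx values were 1.62 and 12.5 CPM, and their lowest WT NoTx values 1.57 and 8.08 CPM. All 6 nucleic acid sensors were separated, with fold changes from −1.55 for *Dhx58* to −0.65 for *Ifi204*. All 4 PARP and DTX3L genes were separated as well, at −0.78 to −0.49. The membrane factors *Bst2* and *Ifitm3* were not separated, at −0.23 and −0.68, nor was *Ifi27*, which had the smallest difference of the 36 at −0.11 ± 0.12.

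After UVB the order of the genotypes was the other way round in the point estimates. Fold changes of *Ifnk* TG against WT were positive for 34 of the 36 genes, with a median of 0.59 beside 0.01 over all genes. None was called by edgeR, where 0% of all genes were, or by DESeq2, and 3 had an unadjusted p under 0.05, as did 1131 of all 16173 genes. Libraries did not overlap for *Ifit1bl2* and *Ifi27*, which is 5.56% of the 36 genes beside 5.31% of all genes. The number was 22 without WT UV sample 9, where 10.5% of all genes were separated, and 16 without *Ifnk* TG UV sample 10, where 16.4% were.

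In WT nodes, 34 of the 36 genes were lower after UVB, with a median of −0.89 beside 0 over all genes. Called lower were 2 genes (5.56%), beside 2.06% of all genes. *Ifit1bl2* had 2.75, 5.45 and 4.33 CPM in NoTx samples 1 to 3 and 1.62, 0.40 and 1.65 CPM in UV samples 7 to 9, a fold change of −1.75 ± 0.42 (adjusted p = 0.0384). *Lgals3bp*, a secreted glycoprotein that binds galectins, had 107.5, 166 and 165.5 CPM in NoTx and 73.7, 67.6 and 96.3 CPM in UV nodes, a fold change of −0.89 ± 0.23 (adjusted p = 0.0492). For both, every UV library was below every NoTx library. In *Ifnk* TG nodes, *Ifit1bl2* had 1.38, 2.47 and 2.25 CPM in NoTx samples 4 to 6 and 3.20, 3.815 and 2.875 CPM in UV samples 10 to 12, and *Lgals3bp* had 93.0, 84.3 and 82.2 CPM and then 84.1, 154.5 and 118 CPM. *Ifitm3* was separated as well (−1.84 ± 0.53, adjusted p = 0.0719), making 3 of the 36 (8.33%), beside 17.3% of all genes. WT UV sample 9 stood at 0.37 in the mean level, within the WT NoTx range, and without it 27 genes were separated, where 24% of all genes were. Without WT NoTx sample 1 or 3 the number was 23 or 5, where 24.8% and 22.9% of all genes were.

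The WT calls were fragile. Leaving out any 1 of WT NoTx samples 2 and 3, WT UV samples 7 to 9 or *Ifnk* TG NoTx sample 6 left no gene called, without *Ifnk* TG NoTx sample 4 or 5 there was 1, and without WT NoTx sample 1 or *Ifnk* TG UV sample 10 there were 4. Of all genes, between 0% and 9.56% were called in either direction in these fits, and 4.98% with all libraries. DESeq2 called 5 lower, *Ifitm3*, *Ifih1*, *Ddx58*, *Lgals3bp* and *Ifit1bl2*, and 15.1% of all genes in either direction.

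In *Ifnk* TG nodes, 35 of the 36 genes were higher after UVB in their fold change, with a median of 0.88 beside 0.02 over all genes. In 20 genes (55.6%) every UV library lay above every NoTx library, where 6.15% of all genes did. Again edgeR called none, as 0% of all genes were called, although 20 had an unadjusted p under 0.05, as did 1507 of all 16173 genes. DESeq2 called *Parp14* and *Dtx3l*, and 0.85% of all genes. *Parp14*, which ADP-ribosylates proteins, stood at 234, 195 and 220.5 CPM in *Ifnk* TG NoTx samples 4 to 6 and at 295, 448 and 367 CPM in UV samples 10 to 12, and at 278, 369 and 337 CPM in WT NoTx nodes. Its fold change was 0.78 ± 0.17 in *Ifnk* TG nodes (adjusted p = 0.16) and −0.03 ± 0.16 in WT nodes (adjusted p = 0.932). Without *Ifnk* TG UV sample 11, the highest library of that group, the count of separated genes was still 20, where 9.39% of all genes were separated, and without sample 10 it was 31, where 10.3% were. Without sample 12, edgeR called 1 gene, and 1.42% of all genes.

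The test of the difference between the genotypes' UVB responses gave positive values for all 36 genes, with a median of 1.79 beside 0.01 over all genes. None passed in edgeR, where 0% of all genes did and every adjusted p of the 36 was at least 0.848, while 31 had an unadjusted p under 0.05, as did 881 of all genes. DESeq2 called *Ifih1* (1.85 ± 0.40, adjusted p = 0.0239), *Lgals3bp* (1.35 ± 0.30, adjusted p = 0.0264) and *Ifit1bl2* (2.45 ± 0.58, adjusted p = 0.0493), where it called 0.0496% of all genes. *Ifih1*, the sensor MDA5, stood at 30.7, 69.4 and 60.0 CPM in WT NoTx, 21.3, 23.5 and 22.3 CPM in *Ifnk* TG NoTx, 23.0, 26.0 and 34.2 CPM in WT UV, and 27.5, 59.55 and 38.2 CPM in *Ifnk* TG UV nodes. The difference is made of the same 12 libraries as the 4 pairwise comparisons, so it is not further evidence beside them. All 36 values stayed positive whichever library was left out, and the median ranged from 1.24 without WT NoTx sample 2 to 2.09.

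**Figure D4:**
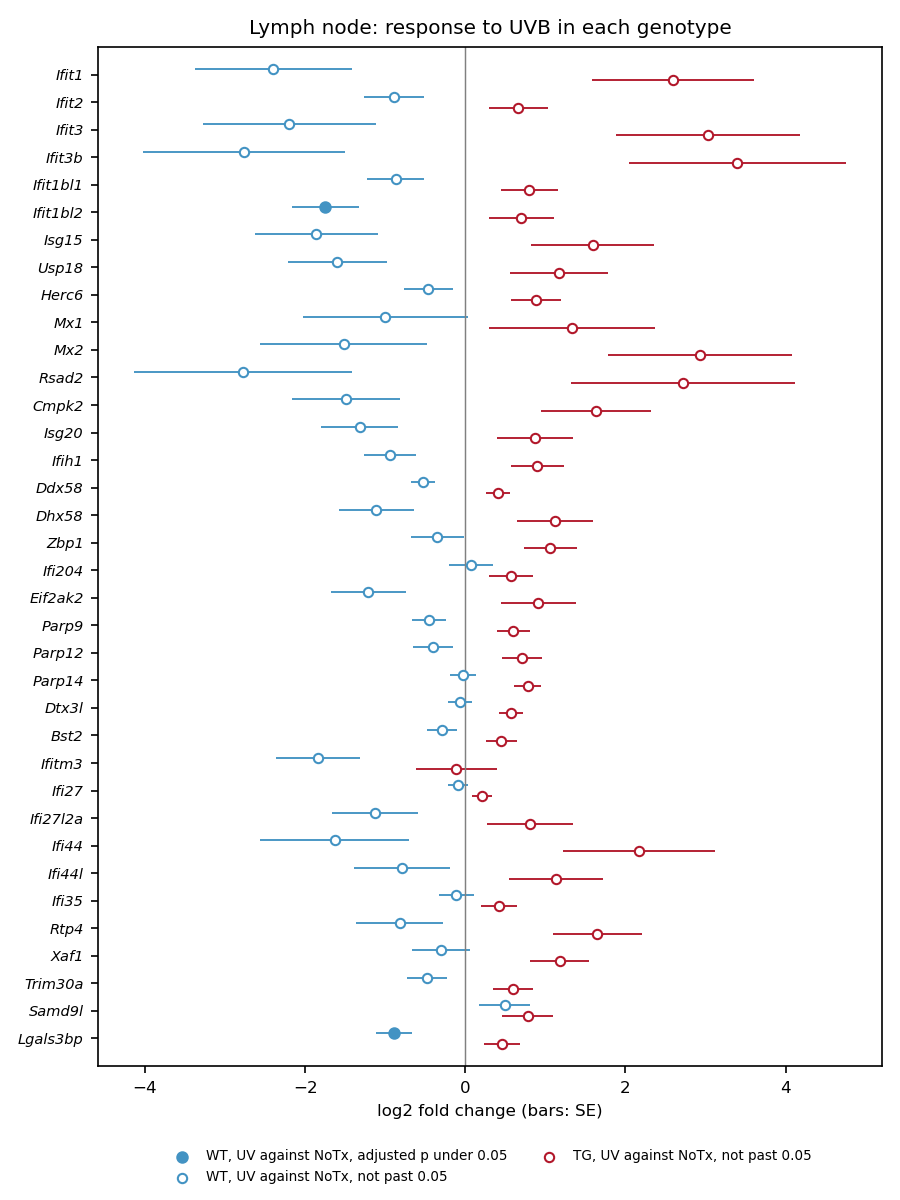
Log2 fold change after UVB (x axis, bars are SE) of each of the 36 genes (y axis) in WT nodes (blue) and *Ifnk* TG nodes (red); filled points have an adjusted p under 0.05 in edgeR's test. Blue points lie left of 0 for 34 genes with *Ifit1bl2* and *Lgals3bp* filled, and red points lie right of 0 for 35 genes with none filled.

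Averaged over both treatments, *Ifnk* TG against WT had a median of −0.26 and averaged over both genotypes UVB had a median of 0.08. None of the 36 genes was called in either average, beside 0.00618% and 8.61% of all genes, and 0 and 4 had an unadjusted p under 0.05, as did 754 and 4565 of all 16173 genes. DESeq2 called 0 in the genotype average and 2, *Parp14* and *Samd9l*, as higher in the UVB average, where it called 15.1% of all genes. edgeR called 2 there without *Ifnk* TG UV sample 12, and 1 without *Ifnk* TG UV sample 10 or WT UV sample 7, where 22.8%, 4.14% and 7.19% of all genes were called. *Samd9l*, a restriction factor of translation, and *Ifi204* were the only 2 genes with positive fold changes after UVB in both genotypes. For *Samd9l* they were 0.49 ± 0.32 in WT and 0.78 ± 0.32 in *Ifnk* TG nodes. Its libraries ranged from 407 to 497 CPM in WT UV and from 269 to 455 CPM in WT NoTx nodes. In *Ifnk* TG nodes they ranged from 204 to 531 CPM after UVB and from 229 to 249 CPM in NoTx. The lowest *Ifnk* TG UV library thus lay below every *Ifnk* TG NoTx library.

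**Figure D5:**
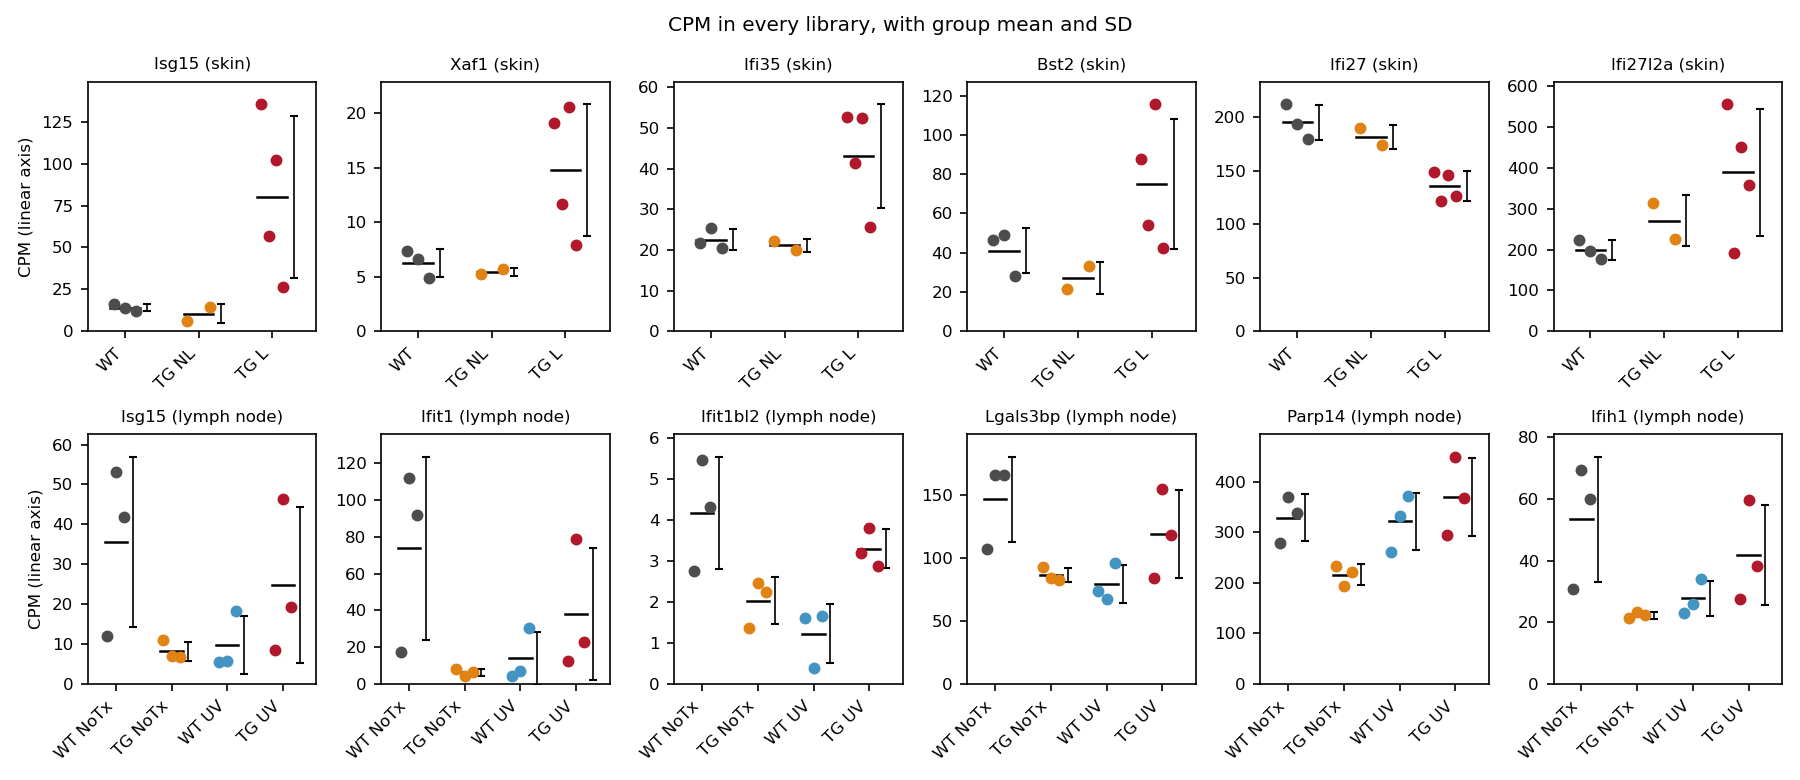
CPM in every library (y axes, linear from 0) of 6 genes in skin (top) and 6 in lymph node (bottom) by group (x axes); points are libraries, horizontal bars are group means and vertical bars are SD, cut at 0. The L points of *Isg15* run from 26.1 to 135.5 CPM above WT and NL, those of *Ifi27* lie below them, and the *Ifnk* TG NoTx points of all 6 node panels lie below the WT NoTx points.

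Elsewhere in the pathway the type I ligands on the list were at or under the floor of 3 counts in the nodes. *Ifnk*, *Ifnb1*, *Ifne*, *Ifna1*, *Ifna4* and *Ifna5* had 0 counts in each of the 12 libraries, and *Ifna2* had at most 2. *Irf7*, the regulator that ISGF3 induces, went the way of the 36 genes without a call, at −1.63 ± 0.51 for *Ifnk* TG against WT in NoTx nodes and 1.37 ± 0.50 after UVB in *Ifnk* TG nodes. The 7 *Oas* genes tested were all lower in *Ifnk* TG NoTx nodes, with a median of −1.83, none called. The 8 genes leaning towards interferon gamma had a median of −0.23 in that comparison. In WT nodes after UVB, *Ifng* was called higher at 1.51 ± 0.35 (adjusted p = 0.0343), with 28, 17 and 11 counts before and 44, 55 and 52 after. *Irf1* (0.53), *Socs1* (0.56) and *Gbp3* (0.56) were called higher there too, as were 2.92% of all genes. In the UVB average, 5 of the 8 genes leaning towards interferon gamma were called higher, among them *Iigp1* (1.08 ± 0.18) and *Igtp* (0.76 ± 0.12). Of all genes 4.81% were called higher there, and none of the 36 ISGs was.

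Cell markers differed between node groups as well. In NoTx nodes the neutrophil list, with 5 of 6 genes tested, summed to 10.8 to 17.8 CPM in *Ifnk* TG and 5.73 to 9.56 CPM in WT, and the T cell list of 6 to 1540 to 1680 CPM and 1750 to 1810 CPM, with no gene of either list called. The list for plasmacytoid dendritic cells, known as strong makers of type I interferon, summed to 311 to 357 CPM in *Ifnk* TG NoTx and 238 to 321 CPM in WT NoTx nodes. After UVB in WT nodes, 2 of 6 T cell genes and 2 of 4 tested erythroid genes were called lower, beside 2.06% of all genes. The part of these cells in the ISG values was not tested.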

How the data were processed

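RNA was measured in 9 skin and 12 inguinal lymph node libraries. Per the submitters' processing notes and the study's methods, the authors sequenced poly-A libraries with paired reads of 151 bases, trimmed them with cutadapt 4.8, aligned them to GRCm38 with STAR 2.7.8a, and deposited RSEM 1.3.3 expected counts per gene, which are whole numbers and not normalized. The annotation release and the strand setting are not given in the sources used here. Positions and exonic lengths came from GENCODE for GRCm38, and promoter sequences from RefSeq.

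Low genes were dropped with edgeR's filterByExpr (minimum count 10). Libraries were scaled by TMM and tested with edgeR's quasi-likelihood F-test (edgeR 4.0.16 under R 4.3.3, robust), all libraries of a tissue in 1 fit. P-values were adjusted by the Benjamini-Hochberg method across all tested genes, and the SE was derived from F. The code was tested on simulated counts. Alternatives were DESeq2 1.42.0, RLE scaling, other filters, the compared groups alone, no robust estimation, leaving out skin composition genes, and each library left out in turn.

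The 36 genes and the lists of pathway and marker genes were chosen with earlier results of these data known. By rule, genes called in at least 1 comparison are given in every library of the tissue in which they were called, and others by range and count. *Usp18*, *Ifit1*, *Parp14*, *Ifih1* and *Samd9l* were given more room after their values were seen. Total counts per library were 27599809 to 56511276, and the floor of 3 counts behind a 0 covers counting error only. Part of the signalling list is not reported here.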

Additional observations from a re-analysis of the deposited data

Results flagged for a closer look

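*Isg20*, an exonuclease that degrades RNA, stood at 12.7 CPM in L skin sample 4, while the other 3 L libraries lay between 6.85 and 7.40 CPM. The gap was 0.906 of the group's range, above Dixon's critical value for 4 samples. Chance alone passes this limit in about 1 in 20 groups, and 36 genes were looked at.

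The response of *Ifit1bl2* to UVB differed between genotypes by 2.45 on the log2 scale (*Ifnk* TG minus WT). The adjusted p was 0.848 in edgeR and 0.0493 in DESeq2. In *Ifnk* TG nodes all 3 UV libraries lay above the NoTx libraries, and in WT nodes all 3 lay below.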

How the results depend on the processing

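No paired analysis was possible because the labels number the samples of a tissue without repeating a number between groups. No called gene changed direction under any alternative tried. The number of the 36 genes called in L against WT skin was 13 with DESeq2, 5 with no low-count filter and 5 with the compared groups alone, instead of 8. In L against NL skin it was 16, 3 and 0, instead of 5. In WT nodes after UVB it was 5 with DESeq2 and 1 with no low-count filter, instead of 2. With DESeq2 it was 2 in *Ifnk* TG nodes after UVB, 3 for the difference between the UVB responses and 2 in the UVB average, instead of 0. The cause was not tested.

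With 1 library left out in turn, the number called ranged from 3 to 12 in L against WT skin, 0 to 12 in L against NL skin, 0 to 4 in WT nodes and 0 to 1 in *Ifnk* TG nodes after UVB, and 0 to 2 in the UVB average. It stayed at 0 in the other comparisons. The number of genes whose libraries did not overlap, an alternative added after seeing the data, ranged from 4 to 12 upward and 1 to 2 downward in L against WT skin, 13 to 23 upward in L against NL skin, 1 to 3 upward and 6 to 24 downward in NL against WT skin, 2 to 22 upward for *Ifnk* TG against WT nodes after UVB, 3 to 27 downward in WT nodes after UVB, and 20 to 31 upward in *Ifnk* TG nodes after UVB. The median fold change kept its sign except in the UVB average, where it ran from −0.21 to 0.24. *Ifit1bl1* has no value with at least 10 counts required in every library.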
